A study of Mus musculus with 8 samples.

Results

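Krüppel-like factors (KLFs) are zinc-finger transcription factors that bind GC-rich and CACCC-containing DNA through a conserved set of C-terminal zinc fingers, and whose differing N-terminal parts recruit co-activators or co-repressors. Klf2 and Klf4 are the members best known downstream of ERK5, a kinase that MEK5 activates. The genes described here are 9 other KLF genes, Klf3, Klf5, Klf6, Klf7, Klf9, Klf10, Klf11, Klf13 and Klf16, taken by symbol from the 24454 genes measured. They fall into several functional kinds: the TGF-beta-inducible pair Klf10 and Klf11; Klf9, Klf13 and Klf16, which like that pair can recruit the Sin3 co-repressor; Klf3, a repressor that acts through CtBP; and Klf5, Klf6 and Klf7, which are mostly described as activators.

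RNA was sequenced from 4T1 cells, a mouse mammary carcinoma line from a BALB/c mouse widely used to model metastatic breast cancer. Every culture had been infected with a lentiviral short hairpin vector and selected with puromycin. The hairpin was directed against ERK5 in 3 libraries (shERK5, 1 hairpin titled shERK5-1), against MEK5 in 2 libraries (shMEK5, 1 hairpin titled shMEK5-2) and was non-targeting in 3 libraries (shCTRL). The series title concerns MEK5-ERK5 signalling in the epithelial-mesenchymal transition of breast cancer cells. The sources used here do not say whether infected cells were kept as a pool or a clone, or whether replicates were independent cultures. The p-values below therefore reflect the spread among these libraries alone, and that spread may be technical.

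Libraries held between 41397315 and 53714288 gene-assigned reads, and values are counts per 1000000 of those reads (CPM). Mapk7, which encodes ERK5, stood at 6.53 ± 0.173 CPM in shERK5 (SD, n = 3) and at 26.8 ± 1.60 CPM in shCTRL (SD, n = 3). Map2k5, which encodes MEK5, averaged 14.2 ± 0.216 CPM in shMEK5 (SD, n = 2), against 36.3 ± 0.997 CPM in shCTRL (SD, n = 3). Mapk7 was also lower in shMEK5, at 19.5 ± 1.19 CPM (SD, n = 2). Its log2 fold change there was -0.44 against shCTRL (SE 0.08, limma adjusted p = 0.000923). Map2k5 in shERK5 was at 36.7 ± 0.475 CPM (SD, n = 3), a log2 fold change of 0.01 (limma adjusted p = 0.848). The keratin and epithelial adhesion markers summed to between 1565 and 1609 CPM in shERK5, 1229 and 1288 CPM in shMEK5, and 1663 and 1845 CPM in shCTRL. The keratins make up most of that sum, and the markers did not move together. In shERK5 Cldn4 (414% of the shCTRL mean), Cdh1 (299.9%) and Epcam (216%) rose by limma, and Krt8 and Krt18 fell (69.7% each). In shMEK5 Krt8 (69.1%) and Krt18 (65.8%) fell and Cdh1 rose (149%), and the call of Cldn4 (113%) was lost without either shMEK5 library or without shCTRL replicate 1 or 3. All 5 leukocyte and all 4 endothelial markers were near 0, with list sums of at most 0.362 CPM in any library. Of the 5 fibroblast markers Pdgfra alone passed the filter; the list summed to 22.9 to 28.2 CPM in shERK5, 34.4 to 35.9 CPM in shMEK5 and 31.6 to 47.3 CPM in shCTRL. The other 4 summed to at most 1.06 CPM, with Dcn at 0 in every library. The part of these marker levels in the KLF results was not tested. In bulk RNA, fewer cells of a kind and less RNA per cell cannot be told apart.

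All 9 KLF genes were expressed above the filter of 1 CPM in at least 2 libraries, with between 255 reads (Klf7) and 29274 reads (Klf6) per library. In shERK5, Klf10 and Klf7 rose and Klf13, Klf3 and Klf9 fell against shCTRL. In shMEK5, Klf10 and Klf7 rose and Klf9, Klf13 and Klf3 fell against the same shCTRL libraries, which both comparisons share. Klf5, Klf6, Klf11 and Klf16 passed the test in neither. A gene was called when its adjusted p by limma, Benjamini-Hochberg adjusted over the 11623 genes tested, was under 0.05. By that rule 63.3% of all tested genes were called in shERK5 and 48.7% in shMEK5, so 5 called genes of 9 in each is near the share of all genes. Those that rose were 2 of 9 in each, beside 32% of all genes in shERK5 and 23.1% in shMEK5, and those that fell were 3 of 9, beside 31.3% in shERK5 and 25.6% in shMEK5. The median absolute log2 fold change of the 9 genes was 0.45 in shERK5 and 0.42 in shMEK5, beside 0.25 and 0.20 over all tested genes. All fold changes were taken between values of log2(CPM + 1), so those of low genes are understated.

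**Figure D1:**
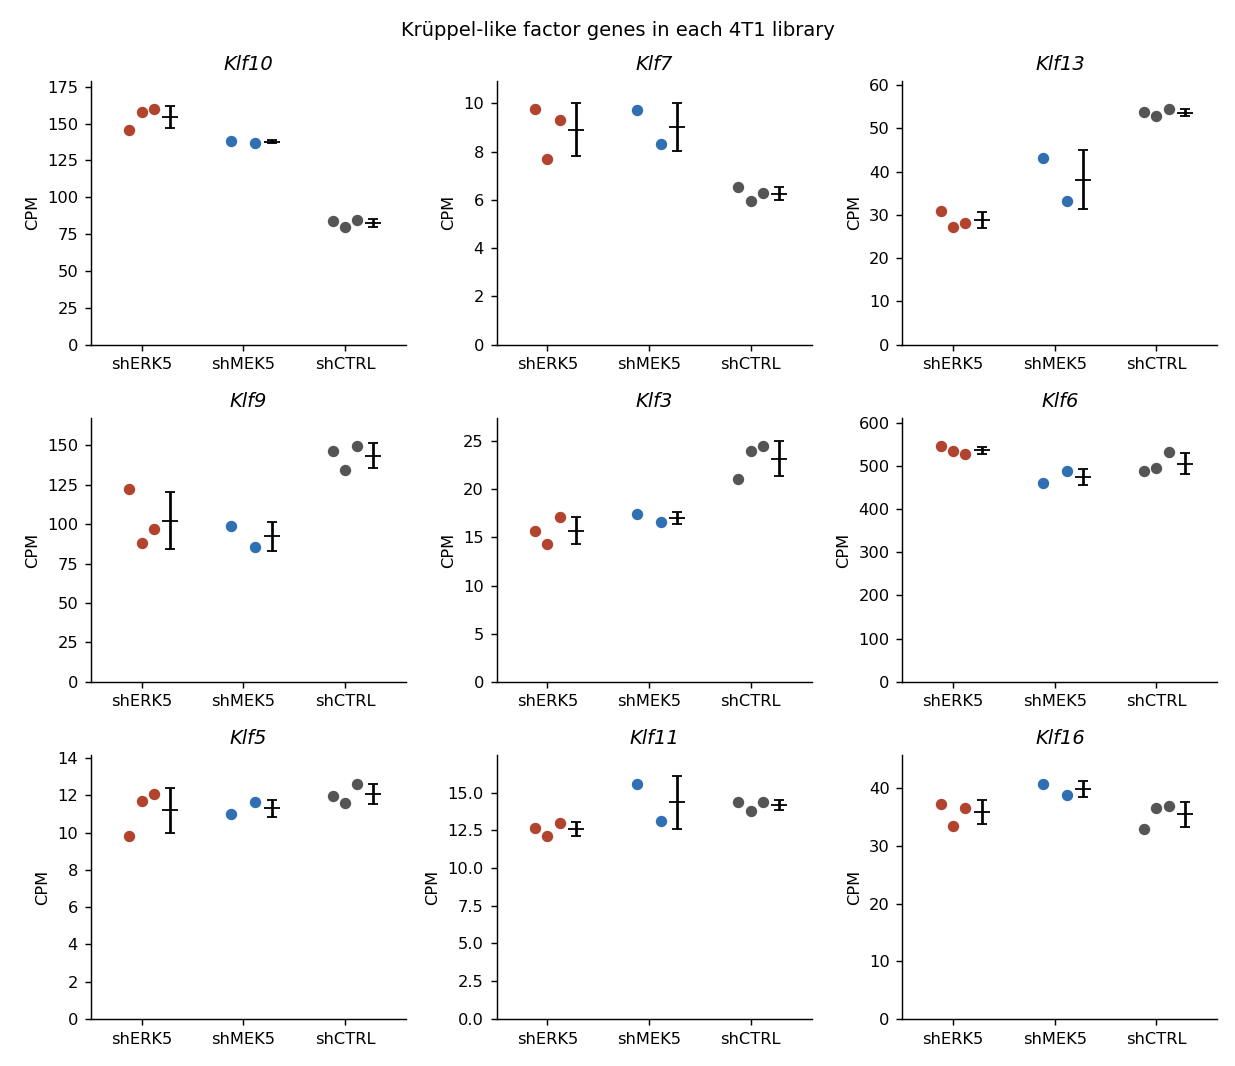
Each panel shows 1 KLF gene in CPM (linear axis from 0) in the shERK5 (n = 3), shMEK5 (n = 2) and shCTRL (n = 3) libraries; points are libraries, the bar is the mean ± SD. Klf10 and Klf7 lie higher in every knockdown library than in every shCTRL library, Klf13, Klf9 and Klf3 lie lower, and the knockdown and shCTRL points of Klf5 and Klf16 lie close together.

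The promoters of the genes that moved are shown because KLF proteins bind GC and CACCC boxes themselves. RefSeq's table (GRCm38.p6, the C57BL/6J reference and not 4T1's own sequence) matched 6 of the 9 genes, Klf3, Klf6, Klf7, Klf9, Klf11 and Klf13. The 250 bases before the start given there were searched. For Klf7, on the minus strand, that start lies inside the gene. Its searched window runs from 64121390 to 64121639, while the gene extends upstream to 64122345. For the called genes among them the window is given 5′ to 3′ on the gene's strand, up to the first GENCODE exon of the gene where one begins inside it (after 117 bases in Klf3 and 148 bases in Klf7). Capitals mark the GC box (GGGCGG), the CACCC box (CACCC) and the CCAAT box (CCAAT) on either strand; overlapping or adjoining matches merge into 1 run.
Klf3, chr5:64803271-64803387, plus strand: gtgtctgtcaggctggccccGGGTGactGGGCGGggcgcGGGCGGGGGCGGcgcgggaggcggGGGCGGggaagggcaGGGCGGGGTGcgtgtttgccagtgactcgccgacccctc
Klf9, chr19:23140976-23141225, plus strand: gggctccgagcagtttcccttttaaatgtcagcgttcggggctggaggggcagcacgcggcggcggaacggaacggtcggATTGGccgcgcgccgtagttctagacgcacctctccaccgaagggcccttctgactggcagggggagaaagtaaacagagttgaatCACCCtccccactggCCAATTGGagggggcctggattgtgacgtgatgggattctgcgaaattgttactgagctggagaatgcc
Klf13, chr7:63938916-63939165, minus strand: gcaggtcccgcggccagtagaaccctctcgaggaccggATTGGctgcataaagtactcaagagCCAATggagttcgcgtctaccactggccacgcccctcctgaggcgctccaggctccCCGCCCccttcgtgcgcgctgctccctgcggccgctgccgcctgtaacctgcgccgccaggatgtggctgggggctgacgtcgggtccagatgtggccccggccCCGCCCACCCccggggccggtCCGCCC
Klf7, chr1:64121492-64121639, minus strand: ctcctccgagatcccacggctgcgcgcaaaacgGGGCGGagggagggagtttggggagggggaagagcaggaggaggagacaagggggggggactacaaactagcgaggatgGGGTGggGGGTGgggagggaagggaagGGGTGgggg

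Klf3, Klf13 and Klf7 each held both GC and CACCC boxes in this window, and Klf9 held a CACCC box and no GC box. Klf3 had 6 GC boxes and 5 CACCC boxes over all 250 bases, with 1 GC box and 1 CACCC box overlapping, and its window was 78.4% G or C. Klf13 had 3 GC boxes, 1 CACCC box that overlaps a GC box, and 2 CCAAT boxes, at 71.6% G or C. Klf9 had 3 CCAAT boxes, 2 of them overlapping on opposite strands, and 1 CACCC box, at 59.6% G or C. Klf7, which rose, had 1 GC box and 3 CACCC boxes, at 59.2% G or C. In the windows of Klf6 and Klf11, which were not called against shCTRL, GC and CCAAT boxes were found and no CACCC box.

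Of 27025 promoters in the table, 1 per gene, 32.9% held a GC box, 51.3% a CACCC box and 34.5% a CCAAT box in the same window, and the median was 52.0% G or C. The E-box CACGTG was found in Klf6 and Klf11 and in 6.05% of all promoters. The MEF2 core CTANNNNTAG, the kind of site through which ERK5 is known to act on Klf2, was found in 0 of the 6 windows and in 3.23% of all promoters. The cAMP response element TGACGTCA and the SMAD palindrome GTCTAGAC were likewise in 0 of the 6, and in 1.62% and 0.174% of all promoters. A match or its absence in this window is a description of these letters and not of binding.

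Klf10, known as TGF-beta-inducible early gene 1 (Entrez Gene 21847; chromosome 15, 38291464 to 38300711, GRCm38), was the KLF gene with the greatest rise. It had 146, 158 and 159.7 CPM in shERK5, 139 and 137 CPM in shMEK5, and 83.7, 79.8 and 84.7 CPM in shCTRL. Every knockdown library exceeded every shCTRL library, and the shERK5 and shMEK5 libraries did not overlap each other. Its log2 fold change was 0.89 in shERK5 against shCTRL (SE 0.05, limma adjusted p = 2.86e-07) and 0.73 in shMEK5 against shCTRL (SE 0.06, adjusted p = 4.41e-06). These lay at the 98.0th and 97.0th percentile of the fold changes of all tested genes. Between the knockdowns Klf10 was higher in shERK5 by 0.16 (SE 0.06, adjusted p = 0.0367). That small difference was not called in most of the 18 alternative settings. It was lost with TMM scaling, without a filter, with only the compared groups, with edgeR and with DESeq2. The replicate number as a block also removed it (0.14, adjusted p = 0.0718), as did leaving out shERK5 replicate 2 (0.15) or 3 (0.14). It was lost too without shMEK5 replicate 1 (0.17) or 2 (0.16), which leaves 1 library in that group.

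Klf11, the second TGF-beta-inducible gene of the family (Entrez Gene 194655; chromosome 12, 24651371 to 24662782), passed the test in no comparison with all libraries. It had 12.7, 12.1 and 13.0 CPM in shERK5, 15.6 and 13.1 CPM in shMEK5, and 14.4, 13.8 and 14.4 CPM in shCTRL. The shERK5 libraries lay just below the other libraries, and the shMEK5 libraries lay on either side of shCTRL. The log2 fold change was -0.16 in shERK5 (95% interval -0.32 to 0.00, limma adjusted p = 0.0769) and 0.01 in shMEK5 (-0.17 to 0.20, adjusted p = 0.908). Between the knockdowns it was -0.17 (-0.36 to 0.01, adjusted p = 0.118), a difference that was called without shMEK5 replicate 2 (-0.29, adjusted p = 0.0395).

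Genes known to be induced early by TGF-beta, the setting in which Klf10 was first described, were also examined. Of 7 such genes tested, 4 rose and 2 fell in shERK5, beside 32% and 31.3% of all genes. Their median log2 fold change there was 0.42, beside 0.00 over all genes. In shMEK5 5 rose, beside 23.1% of all genes, with a median of 0.25 beside -0.02. There 0 fell by limma, beside 25.6% of all genes, and 0 by edgeR, 0 by DESeq2 and 0 at an unadjusted p under 0.05. The number that rose in shMEK5 was 3 without shCTRL replicate 1, where Smad7 and Ltbp2 lost their calls. Over all 18 alternatives Smad7 kept its shMEK5 call in 11 and Ltbp2 in 16. The fallers in shERK5 were 1 without shCTRL replicate 3 or shERK5 replicate 2. In shERK5 against shMEK5, 4 of the 7 were lower, beside 17.4% of all tested genes. On the log2 scale Pmepa1, a feedback inhibitor of SMAD signalling, rose by 0.49 (SE 0.07) in shERK5 and by 1.20 (SE 0.08) in shMEK5, and Bhlhe40, a basic helix-loop-helix repressor, by 1.25 (SE 0.13) in shERK5 and 0.98 (SE 0.15) in shMEK5. Skil, which restrains SMAD proteins, fell in shERK5 (log2 fold change -0.58, SE 0.06, limma adjusted p = 1.32e-05) and had 0.16 in shMEK5 (SE 0.06, adjusted p = 0.0644).

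Klf13, a Sin3-recruiting factor known in T lymphocytes as an activator of Ccl5 (Entrez Gene 50794; chromosome 7, 63886351 to 63938915), showed the greatest fall in shERK5. It had 30.8, 27.2 and 28.2 CPM in shERK5, 43.0 and 33.3 CPM in shMEK5, and 53.7, 52.9 and 54.4 CPM in shCTRL. The groups did not overlap, and the shMEK5 libraries lay between the others and differed more from each other than those of shERK5 or shCTRL did. Its log2 fold change was -0.88 in shERK5 (SE 0.09, limma adjusted p = 1.19e-05) and -0.49 in shMEK5 (SE 0.10, adjusted p = 0.00188). Between the knockdowns Klf13 was lower in shERK5 (log2 fold change -0.39, SE 0.10, adjusted p = 0.00895), and this difference was not called without shMEK5 replicate 1 (-0.21, adjusted p = 0.107).

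Klf9, a glucocorticoid- and thyroid-hormone-inducible factor (Entrez Gene 16601; chromosome 19, 23141226 to 23168129), fell in both comparisons with shCTRL. It had 122, 87.8 and 96.9 CPM in shERK5, 98.7 and 85.7 CPM in shMEK5, and 146, 135 and 149 CPM in shCTRL. All knockdown libraries lay below all shCTRL libraries, with shERK5 replicate 1 the nearest to them. On the log2 scale it fell in shERK5 (-0.50, SE 0.11, limma adjusted p = 0.00520) and in shMEK5 (-0.63, SE 0.13, adjusted p = 0.00389). Between the knockdowns the difference was 0.14 (95% interval -0.16 to 0.43, adjusted p = 0.432).

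Of 6 genes of the glucocorticoid response, the setting in which Klf9 is induced, 1 rose and 5 fell in shERK5 (median log2 fold change -0.21). All tested genes there rose in 32% and fell in 31.3%. In shMEK5 2 rose and 1 fell (median 0.13), beside 23.1% and 25.6% of all tested genes. These counts depended on settings and on single libraries. In shERK5 4 fell without a filter, without the robust option or with only the compared groups. With a filter of a mean of at least 5 CPM, 5 were tested and 3 fell there. In shERK5 2 fell without shCTRL replicate 2, and 3 fell without shCTRL replicate 1 or shERK5 replicate 1 or 3. In shMEK5 1 rose without shCTRL replicate 3, 1 rose and 0 fell without shMEK5 replicate 1, and 2 rose and 0 fell without shMEK5 replicate 2. Nr3c1, the glucocorticoid receptor, fell in shERK5 to 201 ± 17.3 CPM (SD, n = 3), against 292 ± 18.7 CPM in shCTRL (SD, n = 3). In shMEK5 it was at 244 ± 3.06 CPM (SD, n = 2), which is -0.26 on the log2 scale (limma adjusted p = 0.0158) and whose call was lost without either shMEK5 library (adjusted p = 0.0826 without replicate 1 and 0.063 without replicate 2). Sgk1, a kinase gene induced by glucocorticoids, went opposite ways, at -0.43 (SE 0.05) in shERK5 and 0.62 (SE 0.05) in shMEK5. Per1, a clock gene with glucocorticoid response elements, rose by 0.46 (SE 0.10) in shERK5, and Tsc22d3, the glucocorticoid-induced leucine zipper, had -0.16 there (SE 0.05, adjusted p = 0.0167), a call lost in the fits that left out shCTRL replicate 2 (-0.15) and shERK5 replicate 3 (-0.14), with adjusted p = 0.0535 and 0.0689.

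Klf16, the remaining Sin3-recruiting member, first described as a regulator of dopamine receptor genes (Entrez Gene 118445; chromosome 10, 80567121 to 80577296), passed the test in no comparison. It had 37.4, 33.5 and 36.7 CPM in shERK5, 40.8 and 38.9 CPM in shMEK5, and 33.0, 36.5 and 36.9 CPM in shCTRL. Both shMEK5 libraries lay above all others, while shERK5 and shCTRL overlapped. On the log2 scale the fold change was 0.01 in shERK5 (95% interval -0.13 to 0.16, limma adjusted p = 0.862), 0.17 in shMEK5 (0.01 to 0.32, adjusted p = 0.0796) and -0.15 between the knockdowns (-0.31 to 0.01, adjusted p = 0.120).

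Klf3, the CtBP-dependent repressor (Entrez Gene 16599; chromosome 5, 64803521 to 64832901), fell against shCTRL in both. It had 15.6, 14.3 and 17.2 CPM in shERK5, 17.4 and 16.6 CPM in shMEK5, and 21.1, 23.9 and 24.5 CPM in shCTRL. The knockdown groups overlapped each other and neither overlapped shCTRL. Klf3 had a log2 fold change of -0.53 in shERK5 (SE 0.08, limma adjusted p = 0.000223) and -0.42 in shMEK5 (SE 0.09, adjusted p = 0.00311). Between the knockdowns it was -0.11 (95% interval -0.31 to 0.09, adjusted p = 0.357). The 5′ end of Klf3 overlaps an antisense transcript in the annotation, and the counting is not stated to use strand, so reads of the pair cannot be told apart.

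The 9 members of a list of KLF co-repressor genes were all tested, and 3 rose and 3 fell in shERK5 while 2 rose and 2 fell in shMEK5, beside 63.3% and 48.7% of all genes called. In shMEK5 the count was 1 rising and 0 falling without shMEK5 replicate 1, and 2 rising and 0 falling without shMEK5 replicate 2 or shCTRL replicate 1. In shERK5 2 rose and 2 fell without shCTRL replicate 1 or shERK5 replicate 3, and 4 rose and 2 fell without shERK5 replicate 1. Ctbp2, a CtBP co-repressor of the kind Klf3 binds, fell to 53.3 ± 2.08 CPM in shERK5 (SD, n = 3), against 62.9 ± 3.74 CPM in shCTRL (SD, n = 3). Fhl3, a LIM-domain partner of Klf3, rose to 44.9 ± 1.92 CPM in shERK5 (SD, n = 3) and 47.1 ± 2.64 CPM in shMEK5 (SD, n = 2), against 32.6 ± 1.21 CPM in shCTRL (SD, n = 3). Sin3a, the scaffold bound by Klf9, Klf10, Klf11, Klf13 and Klf16, fell in shERK5 (log2 fold change -0.63, SE 0.16, limma adjusted p = 0.00816) and had -0.43 in shMEK5 (SE 0.18, adjusted p = 0.0757). Sap30, a Sin3 complex subunit, rose by 0.42 in shERK5 (SE 0.07). Of the 3 co-activator genes, Crebbp (-0.43, SE 0.10) and Ep300 (-0.32, SE 0.09) fell in shERK5, and in shMEK5 0 of the 3 were called by limma, 0 by edgeR, 0 by DESeq2 and 0 at an unadjusted p under 0.05; without shMEK5 replicate 1, 2 fell.

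Klf7, a factor best known from neurons (Entrez Gene 93691; chromosome 1, 64029448 to 64122345), had the lowest level of the 9 (CPM and CPM per kb) and rose in both. It had 9.76, 7.68 and 9.31 CPM in shERK5, 9.71 and 8.33 CPM in shMEK5, and 6.51, 5.96 and 6.28 CPM in shCTRL. The knockdown groups overlapped each other and lay above all shCTRL libraries. Klf7 had a log2 fold change of 0.45 in shERK5 (SE 0.09, limma adjusted p = 0.00203) and 0.46 in shMEK5 (SE 0.11, adjusted p = 0.00465), and the shMEK5 call was lost without shMEK5 replicate 1 (0.36, adjusted p = 0.0544). Between the knockdowns it was -0.02 (95% interval -0.25 to 0.22, adjusted p = 0.912). Exons of Klf7 overlap annotated transcripts on the other strand, with the same limit as for Klf3.

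Klf6, a growth-restraining factor described as a tumour suppressor in other tissues (Entrez Gene 23849; chromosome 13, 5861489 to 5870393), had the highest level of the 9 (CPM and CPM per kb). It had 545, 534 and 528 CPM in shERK5, 460.2 and 487 CPM in shMEK5, and 488, 495 and 533 CPM in shCTRL. The shERK5 libraries overlapped the highest shCTRL library, and both shMEK5 libraries lay below the lowest one. The log2 fold change was 0.09 in shERK5 (95% interval -0.02 to 0.19, limma adjusted p = 0.134) and -0.09 in shMEK5 (-0.21 to 0.03, adjusted p = 0.173). Between the knockdowns Klf6 was higher in shERK5 by 0.18 (SE 0.05, adjusted p = 0.0214), a difference not called without shMEK5 replicate 1 (0.14, adjusted p = 0.181).

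Klf5, which drives proliferation in intestinal and basal epithelia (Entrez Gene 12224; chromosome 14, 99298691 to 99313412), passed the test in no comparison. It had 9.79, 11.7 and 12.1 CPM in shERK5, 10.99 and 11.6 CPM in shMEK5, and 11.95, 11.6 and 12.6 CPM in shCTRL, and all groups overlapped. The log2 fold change was -0.10 in shERK5 (95% interval -0.29 to 0.08, limma adjusted p = 0.294), -0.09 in shMEK5 (-0.29 to 0.12, adjusted p = 0.472) and -0.02 between the knockdowns (-0.22 to 0.19, adjusted p = 0.893).

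Enzymes that control KLF protein levels were read from a list of 5, of which 2 fell in shERK5 and 3 in shMEK5 (2 with RLE or TMM scaling, 1 without shCTRL replicate 3 or shMEK5 replicate 1, and 0 without shMEK5 replicate 2); 0 rose in either by limma, edgeR or DESeq2, and 0 at an unadjusted p under 0.05. Over all tested genes, 31.3% fell and 32% rose in shERK5, and 25.6% fell and 23.1% rose in shMEK5. Wwp1, a ubiquitin ligase for KLF5 in human cells, averaged 28.9 ± 4.15 CPM in shERK5 (SD, n = 3) and 34.3 ± 1.25 CPM in shMEK5 (SD, n = 2), against 54.4 ± 11.4 CPM in shCTRL (SD, n = 3). It changed by -0.88 on the log2 scale in shERK5 (SE 0.15, limma adjusted p = 0.00117) and -0.63 in shMEK5 (SE 0.17, adjusted p = 0.0153), the second lost without shMEK5 replicate 1 (-0.59, adjusted p = 0.0889) or replicate 2 (-0.67, adjusted p = 0.0675). Fbxw7, another KLF5 ligase, had -0.25 in shMEK5 (SE 0.07, adjusted p = 0.0181), lost without shCTRL replicate 3 (-0.20, adjusted p = 0.0636) or shMEK5 replicate 2 (-0.19, adjusted p = 0.142). Siah1a, reported to target KLF10, fell in shERK5 (-0.18, SE 0.05, adjusted p = 0.0107). Its call in shMEK5 (-0.16, adjusted p = 0.0407) held in 5 of 18 alternatives, and values ranged from -0.12 without shMEK5 replicate 1 (adjusted p = 0.244) to -0.20 without shMEK5 replicate 2 (adjusted p = 0.0621).

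**Figure D2:**
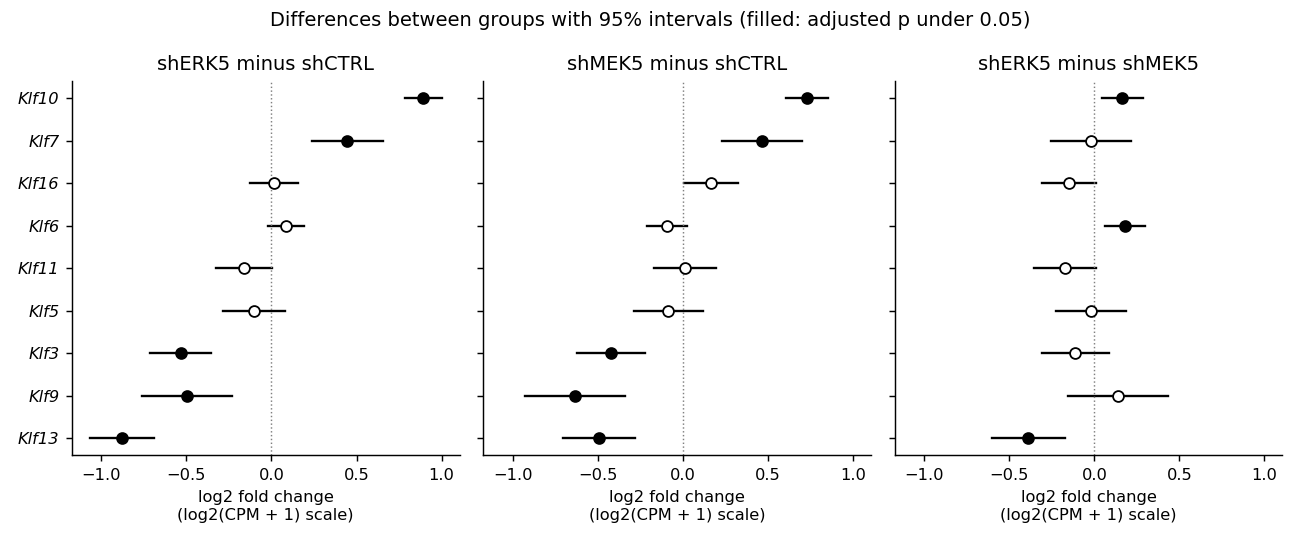
Log2 fold changes (x axis, log2(CPM + 1) scale) of the 9 KLF genes in the 3 comparisons; points are limma estimates, lines their 95% intervals, filled points have an adjusted p under 0.05. Klf10 and Klf7 are to the right of 0 and Klf3, Klf9 and Klf13 to the left against shCTRL, while between the knockdowns only Klf10, Klf6 and Klf13 are filled.

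The direct comparison of shERK5 with shMEK5 called 3 of the 9 genes, Klf6 and Klf10 upwards and Klf13 downwards, beside 39.4% of all tested genes, 22% upwards and 17.4% downwards. The median absolute log2 fold change of the 9 was 0.15, beside 0.17 over all tested genes. For Klf3, Klf5, Klf7, Klf9, Klf11 and Klf16 the intervals for this comparison included 0, and they allow differences of up to 0.43 on the log2 scale for Klf9.

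Levels were set against one another per kilobase of merged exon (GENCODE M21). In shERK5 Klf6 led at 127 ± 1.98 CPM per kb, followed by Klf10 at 40.4 ± 1.95, Klf9 at 22.8 ± 3.97, Klf16 at 13.4 ± 0.778, Klf13 at 4.31 ± 0.280, Klf11 at 3.08 ± 0.109, Klf3 at 2.91 ± 0.265, Klf5 at 2.15 ± 0.235 and Klf7 at 1.11 ± 0.136 CPM per kb (SD, n = 3 each). In shCTRL the order differed at 2 places: Klf9 at 32.0 ± 1.73 CPM per kb stood above Klf10 at 21.6 ± 0.685, and Klf3 at 4.30 ± 0.335 stood above Klf11 at 3.47 ± 0.0852 (SD, n = 3 each). The order in shMEK5 was that of shERK5. Neighbours in the order did not overlap between libraries, except Klf11 and Klf3 in shERK5 and in shMEK5. The ratio of Klf10 to Klf9, both per kb, was 1.40, 2.11 and 1.93 in shERK5 and 1.64 and 1.87 in shMEK5, against 0.670, 0.694 and 0.665 in shCTRL. Klf10 was therefore the second most abundant of the 9 in every knockdown library and Klf9 in every shCTRL library.

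**Figure D3:**
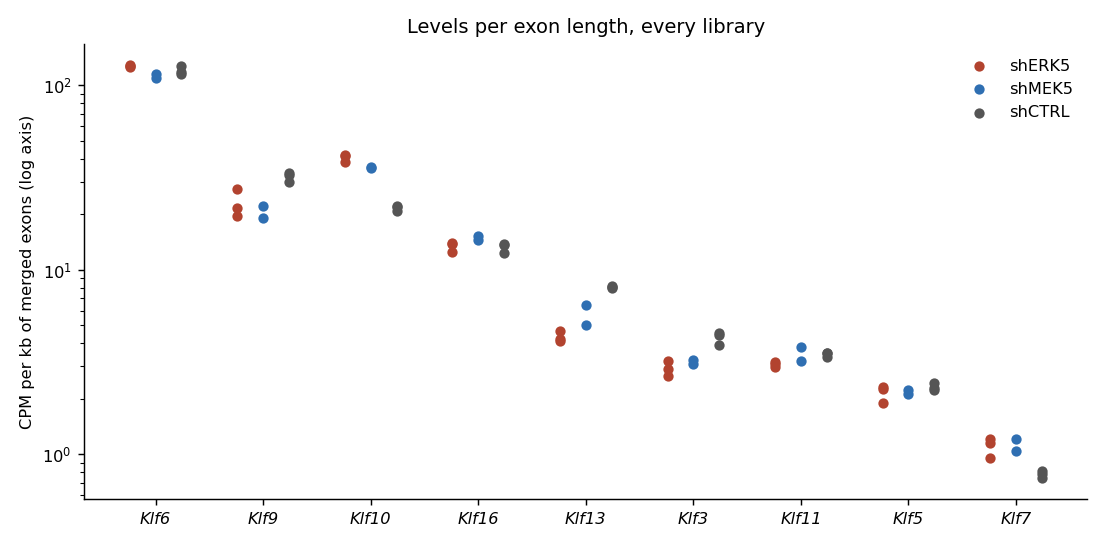
Every library's level of the 9 KLF genes in CPM per kb of merged exons (log axis), ordered by the shCTRL mean, with shERK5, shMEK5 and shCTRL side by side. Klf6 lies above 100 CPM per kb in all groups, and the Klf9 and Klf10 points change order between the knockdown and shCTRL libraries.

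The other 8 KLF genes were low apart from Klf4. Klf4, an epithelial differentiation factor and reported ERK5 target, had 9.70, 7.74 and 8.70 CPM in shERK5, 12.6 and 10.2 CPM in shMEK5, and 14.2, 14.4 and 14.6 CPM in shCTRL. The groups did not overlap. In shERK5 it fell (log2 fold change -0.67, SE 0.09, limma adjusted p = 0.000127). In shMEK5 it had -0.32 (SE 0.10, adjusted p = 0.0257). That call was lost in the fits that left out shCTRL replicate 2 (-0.32), shCTRL replicate 3 (-0.31) and shMEK5 replicate 2 (-0.18), with adjusted p = 0.0571, 0.0647 and 0.257. Klf2, the shear-stress-induced factor most often tied to ERK5, was below the filter. Its means were 0.464 CPM in shERK5, 0.304 CPM in shMEK5 and 0.413 CPM in shCTRL. They rest on 70, 27 and 59 reads, summed over 3, 2 and 3 libraries. Klf1, the erythroid factor, lay between 0.391 and 0.675 CPM. Klf15 lay between 0.0483 and 0.131 CPM, Klf8 had 7 reads and Klf12 had 1 read over the 8 libraries, and Klf14 and Klf17 had 0, which allows up to 3 reads, or 0.0559 to 0.0725 CPM per library for counting error only.

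Sp factors, the closest relatives of the KLFs, share their DNA preference. The counts of called Sp genes below stand beside 63.3% of all tested genes called in shERK5 and 48.7% in shMEK5. Of 9 Sp genes 5 were tested, and 1 rose and 1 fell in shERK5 while in shMEK5 0 were called by limma, 1 by edgeR and 1 by DESeq2, with 2 at an unadjusted limma p under 0.05; 2 were called there with the replicate block, and 1 without shMEK5 replicate 2 or shERK5 replicate 1 or 2. Sp6, an epithelial factor of skin and teeth, rose in shERK5 to 6.10 ± 0.930 CPM (SD, n = 3), against 3.34 ± 0.401 CPM in shCTRL (SD, n = 3), a difference of 0.70 on the log2 scale (SE 0.11, limma adjusted p = 0.000236). Sp3, a widely expressed factor that can repress Sp1 targets, had -0.27 in shERK5 (SE 0.10, adjusted p = 0.0329) and overlapping groups. That call was lost in 8 of 18 alternatives, among them those without shERK5 replicate 2 (-0.20) or 3 (-0.22), shCTRL replicate 1 (-0.25) or 3 (-0.23), or either shMEK5 library (-0.27).

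**Figure D4:**
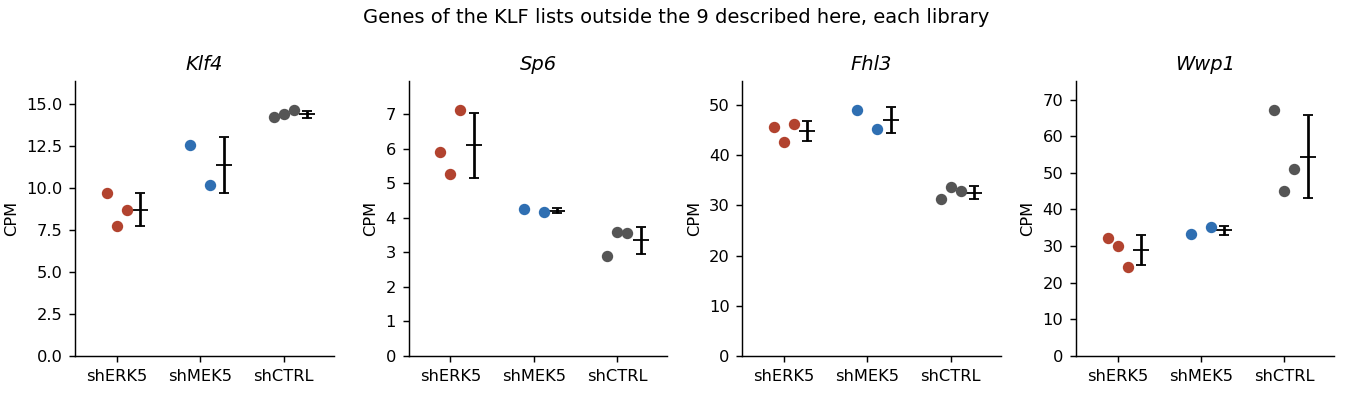
CPM (linear axis from 0) of Klf4 and of the gene with the smallest adjusted p (shERK5 against shCTRL) in the Sp factor, co-repressor and KLF protein turnover lists, in shERK5 (n = 3), shMEK5 (n = 2) and shCTRL (n = 3) libraries; points are libraries, bars the mean ± SD. Klf4 and Wwp1 lie lower and Fhl3 higher in all knockdown libraries than in shCTRL, and Sp6 is highest in shERK5.

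Genes reported elsewhere as regulated by one of these factors were counted from a list of 17, of which 15 were tested. In shERK5 7 rose and 4 fell, and in shMEK5 7 rose and 4 fell. That is 73.3% called in each, beside 63.3% and 48.7% of all tested genes. The number rising in shMEK5 was 5 without shCTRL replicate 3. It was 6 without shCTRL replicate 1 or 2, without shERK5 replicate 3 or with the replicate block. Fewer also rose there without shMEK5 replicate 1 or without shMEK5 replicate 2, fits that leave 1 library in that group. Plau, the urokinase gene reported as a KLF6 target, averaged 515 ± 30.2 CPM in shERK5 (SD, n = 3) and 389.7 ± 15.3 CPM in shMEK5 (SD, n = 2), against 242 ± 7.90 CPM in shCTRL (SD, n = 3). Txnrd2, a mitochondrial thioredoxin reductase gene that KLF9 is reported to repress, rose by 1.31 (SE 0.07) in shERK5 and by 0.55 (SE 0.07) in shMEK5. Ptges, a prostaglandin E synthase gene reported as a KLF5 target, rose by 1.13 (SE 0.06) in shERK5 and 0.62 (SE 0.07) in shMEK5. Pdgfa, a growth factor gene also reported under KLF5, fell in shERK5 (log2 fold change -0.85, SE 0.07) and had -0.13 in shMEK5 (SE 0.08, limma adjusted p = 0.209).

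For each of the 9 genes, the genes most like it over the 8 libraries were taken by Pearson correlation of log2(CPM + 1) among 10058 tested genes with a mean of at least 5 CPM. The points share libraries and group means, so these values are descriptions with no test. Klf10 was most like Aif1l (r = 0.997), Vcpkmt (0.996) and Uchl3 (0.995), and 527 genes reached r of at least 0.95 with it. Klf13 was most like Asxl1 (0.996), a chromatin regulator, Camkk2 (0.992) and Chd4 (0.990), a chromatin remodeller, with 237 such genes. Klf9 was most like Strn (0.994), Eml5 (0.993) and Zmym4 (0.990), with 80 such genes, and Klf3 most like Gigyf1 (0.993), Trim41 (0.983) and Pnrc1 (0.981), with 82. Klf7 was most like Shb (0.987), Rrm2b (0.976) and Mkx (0.970), and Klf11 most like Srrm2 (0.990), Rbm33 (0.977) and Polr2a (0.971). Klf16 was most like Taf4b (0.986), Scrib (0.972) and Col5a1 (0.961), and Klf6 most like Riok2 (0.998), Rab3gap2 (0.959) and Wdr5b (0.943). Klf5 had no gene at 0.95, and its nearest were Fam160b1 (0.915), Slc41a1 (0.903) and Nisch (0.903). Among the 9 themselves, Klf10 ran against Klf13 (r = -0.94) and Klf3 (r = -0.94), and Klf3 ran with Klf13 (r = 0.91).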

How the data were processed

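Total RNA of 8 libraries was sequenced after ribosomal RNA depletion with a stranded kit, per the labels' protocols. The submitters' processing notes name STAR and mm10 (GRCm38). Not given in the sources used here are annotation, counting program and strand setting. The authors deposited CPM, listed by Entrez Gene number. Values came out as whole numbers of reads within 0.01 read for 100% of values, so reads were recovered for count tests; 1 read was worth between 0.0186 and 0.0242 CPM. Symbols came from RefSeq (24374 genes) and GENCODE (7), and 73 genes stayed unnamed.

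The 9 genes, the gene lists and the tests were chosen with earlier results of these data known. Genes with at least 1 CPM in at least 2 libraries were tested with limma 3.58.1 (R 4.3.3, trend and robust moderation) on log2(CPM + 1) over all 8 libraries, with 1 mean per group, and p-values were Benjamini-Hochberg adjusted over all 11623 tested genes. The named genes were the 9 members, the hairpin targets, all other KLF genes, up to 4 called genes with the smallest adjusted p per list and the 3 genes most like each member. The values of 1 gene that this rule names are not reported here. Within each group replicates differed beyond sampling noise (chi-square per degree of freedom from 7.77 to 39.6). The fit was also tested on simulated data. Alternatives were RLE and TMM scaling, a pseudocount of 0.1, other filters, edgeR 4.0.16 and DESeq2 1.42.0 on recovered reads, no robust option, only the compared groups, a replicate block and leaving out each library.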

Additional observations from a re-analysis of the deposited data

How the results depend on the processing

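Against shCTRL, the directions of the 5 called KLF genes held in all 18 alternatives in shERK5 and in shMEK5, and all 5 stayed called except Klf7 in shMEK5, so that the number rising there ranged from 1 to 2 over the fits that left out a library. Between the knockdowns, where 2 rose and 1 fell, 1 rose with TMM scaling, without a filter, with only the groups compared, with edgeR and with DESeq2 on recovered reads, and with the replicate block. Leaving out a library, between 0 and 2 rose and between 0 and 2 fell there, and the number of all genes higher ranged from 1583 to 2712 and lower from 1281 to 2178, the lowest of each without shMEK5 replicate 1. Fits without an shMEK5 library assume that the lone library varies like the other groups; the cause of these changes was not tested. Signs turned only for genes that were not called: Klf16 in shERK5 had -0.00107 with TMM scaling (log2) and ranged from -0.036 to 0.061 over fits leaving out a library, Klf11 in shMEK5 ranged from -0.10 to 0.13, and between the knockdowns Klf5 ranged from -0.071 to 0.066 and Klf7 from -0.12 to 0.082.

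The replicate numbers showed no pairing of shERK5 with shCTRL. Same-numbered libraries of these groups deviated from their group means with correlations of -0.06, -0.19 and 0.17, and shCTRL replicate 1 correlated best with shERK5 replicate 2 (0.40). The same-numbered pairs of shMEK5 and shCTRL had -0.13 and 0.03, and the 2 of shERK5 and shMEK5 had 0.46 and 0.52. With 2 shMEK5 libraries the deviations mirror each other, so these values cannot settle whether the replicate numbers pair the knockdowns. With the number as a block, 3759 genes were higher and 3703 lower in shERK5, and 2736 and 3027 in shMEK5, against shCTRL; the calls of the 9 KLF genes against shCTRL did not change. At these depths even Klf7 had 255 reads or more per library, whereas Klf2 and the lower KLF genes had too few to compare.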

Other observations

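Klf9 and Klf10 are known to be under control of the circadian clock, so 12 clock genes were counted, of which 11 were tested. In shERK5 6 rose and 1 fell, beside 32% and 31.3% of all tested genes. In shMEK5 5 rose and 0 fell (0 also by edgeR, by DESeq2 and at an unadjusted p under 0.05), beside 23.1% and 25.6%. Without shERK5 replicate 1, 3 fell in shERK5, and with the replicate block 2 fell there. In shMEK5 4 rose and 1 fell without shCTRL replicate 1, and 4 rose without shCTRL replicate 3. Per1 also lost its shMEK5 call without shMEK5 replicate 1 (0.22 on the log2 scale), which leaves 1 library in that group. Nr1d1, the clock repressor REV-ERB alpha, rose to 10.5 ± 0.906 CPM in shERK5 (SD, n = 3) and 9.52 ± 1.03 CPM in shMEK5 (SD, n = 2), against 2.61 ± 0.395 CPM in shCTRL (SD, n = 3), with limma log2 fold changes of 1.67 (SE 0.10, adjusted p = 5.26e-07) and 1.55 (SE 0.11, adjusted p = 3.68e-06). Cry1, a repressor of the core clock, rose by 0.55 (SE 0.05) in shERK5 and 0.24 (SE 0.06) in shMEK5, and Tef, a clock output factor, by 0.36 (SE 0.05) in shERK5 and 0.54 (SE 0.06) in shMEK5. Arntl, which encodes the core activator BMAL1, fell in shERK5 to 94.7 ± 1.74 CPM (SD, n = 3), against 120.3 ± 8.47 CPM in shCTRL (SD, n = 3). Time of day at harvest was not given in these sources.

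The MEF2 genes encode the factors through which ERK5 is known to act on Klf2 and Klf4. Of 4 MEF2 genes 3 were tested, and 0 were called by limma, edgeR or DESeq2 in either knockdown against shCTRL. Over all tested genes limma called 63.3% in shERK5 and 48.7% in shMEK5. At an unadjusted p under 0.05 there were 0 MEF2 genes by limma and edgeR and 1, Mef2a in shERK5, by DESeq2. Without shCTRL replicate 2, 1 fell in shERK5. Mef2a averaged 67.0 ± 5.15 CPM in shERK5 (SD, n = 3) and 79.1 ± 2.55 CPM in shMEK5 (SD, n = 2), against 78.8 ± 13.6 CPM in shCTRL (SD, n = 3), and each knockdown's range overlapped that of shCTRL; it is named after its values were seen.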
